A study of Saccharomyces cerevisiae with 6 samples.

Results

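The genes described here are 90 budding yeast genes selected by name for the mitochondrial ribosome, out of 4909 genes measured. The name rule took symbols made of MRPL, MRPS, MRP, RSM, IMG, MRX, YML, YMR or MNP and a number, and added RML2, PET123, SWS2, NAM9, MAM33, EHD3 and MHR1. No measured value entered the rule. By their known products, 43 of the 90 genes encode proteins of the large subunit of the mitochondrial ribosome and 31 encode proteins of the small subunit, and these 74 are called the mitoribosomal protein genes below. The remaining 16 genes do not encode subunit proteins by that assignment. They are 11 MRX genes, whose products were found associated with mitochondrial gene expression, together with MRP8, MAM33, RSM22, YMR31 and YMR1. RSM22 encodes a predicted methyltransferase that the deposited annotation lists with the small subunit, YMR31 a subunit of the alpha-ketoglutarate dehydrogenase complex, and YMR1 a phosphoinositide phosphatase whose symbol only matches the name pattern.

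The 6 libraries were direct RNA nanopore libraries, in which native polyadenylated RNA is read from its 3′ end, so that each read counts a transcript and carries its poly(A) tail. The wild type, with 2 libraries, was strain BY4741 (leu2Δ0, his3Δ1, ura3Δ0, met15Δ0, Mat a). The Dcp2 degron, with 2 libraries, was strain LMA5574, a BY4741 derivative that is Mat a and carries TAO3_E1493Q, the RME1(YGR044c) change labelled insert A -308, a construct at trp1-1 that is labelled TRP1-prURA3-Z3EVtf-tURA3-Z3EV-TIR, and DCP2(YNL118c)::polyG-3Flag-AID::kanMX. The Ccr4/Pop2 degron, with 2 libraries, was strain LMA5601, which carries the same TAO3, RME1 and TIR changes and is Mat a, with AID-3Flag-CCR4 and CAF1(YNR052c)::AID-KanMX6, CAF1 being another name of POP2. The wild type's label lists none of these changes, so each comparison with the wild type is between strains that differ at all of them as well as in the degron. All 3 groups grew in YPD at 30 °C, and at an optical density of 0.4 they were treated for 1 h with the auxin IAA at 100 µM together with β-estradiol at 1 µM. Nothing in the labels says that libraries of a group came from separate cultures, so the p-values measure only the spread between these libraries.

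Mitochondrial ribosomes translate the few membrane proteins encoded by mitochondrial DNA, but in yeast nearly all of their proteins are encoded in the nucleus and made in the cytoplasm. Many of the mRNAs for them are known targets of Puf3, an RNA-binding protein that recognises UGUANAUA in 3′ untranslated regions and recruits the Ccr4-Not complex. Ccr4 and Pop2 are the deadenylases of that complex and shorten poly(A) tails, and Dcp2 cuts off the 5′ cap.

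The 200 bases after the stop codon were searched for TGTANATA, the DNA form of that element, on the genome of build R64 from RefSeq, which is the same assembly as sacCer3. All 74 mitoribosomal protein genes held at least 1 match on the sense strand. Among the 4817 other genes that could be matched to RefSeq, 686 held a match (14.2%). On the antisense strand of the same windows the share was 18.9% of mitoribosomal protein genes and 14.0% of the other genes. A match is a stretch of letters and was not shown here to be bound. The 22-base stretches below, written 5′ to 3′ on the gene's own strand, are shown because these genes had the largest level increases in the Ccr4/Pop2 degron or the most matches. Capitals mark the 8 bases that match the motif.
MRPL3 site 1, chrXIII:323058-323079 (+): gccatttTGTAGATAgagaact
MRPL3 site 2, chrXIII:323093-323114 (+): acattctTGTACATAtatatat
MRPS8, chrXIII:572765-572786 (+): cggaccaTGTAAATAataatat
MRPL28 site 1, chrIV:1386541-1386562 (+): ctcctgcTGTAAATAactgatg
MRPL28 site 2, chrIV:1386597-1386618 (+): aattataTGTACATAgacatat
MRP21, chrII:49405-49426 (+): ccgtcttTGTAAATAggtaatg
MAM33, chrIX:230194-230215 (-): atttaacTGTAAATAatttata
RSM19 site 1, chrXIV:695028-695049 (-): gatctagTGTATATAgatttct
RSM19 site 2, chrXIV:695000-695021 (-): tatatcaTGTAAATAagatcaa
RSM19 site 3, chrXIV:694972-694993 (-): ctcgggcTGTATATAtatatat

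The next stretches come from the 4 mitoribosomal protein genes whose level did not pass the test in the Ccr4/Pop2 degron, and from MRX4, a member outside the ribosome that did. They are shown because the same 8 bases were present in genes on either side of the threshold.
EHD3, chrIV:523141-523162 (-): ctatgcaTGTAAATAataaaag
MRP20, chrIV:1278503-1278524 (+): tcacactTGTATATAcggagca
MRP4, chrVIII:100433-100454 (+): ctaaactTGTACATAtgcccat
NAM9, chrXIV:368526-368547 (-): tttacacTGTAAATAtttaatt
MRX4, chrXVI:232516-232537 (+): tctttctTGTATATAacaacgt

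The members held 93 matches in all, which started 8 to 165 bases after the stop codon, with a median of 55. The variable base was A in 44 matches, T in 29, C in 19 and G in 1, the latter being the first match of MRPL3. A C lay 2 bases before the match in 59 of the 74 mitoribosomal protein genes (79.7%), all of which held a match. Of the 4817 other genes, 686 held a match and 170 of these 686 had the C, which is 3.53% of the 4817. This feature was examined after the sequences had been seen. In the stretches above the C is present in MRPS8, EHD3, MRP20, MRP4, MRX4 and the second match of both MRPL3 and RSM19. It is absent from MRP21, MRPL28, MAM33, NAM9 and the other matches of MRPL3 and RSM19. Of the mitoribosomal protein genes, 13 held 2 or more matches. Of the 16 members outside the ribosome, 5 held a match, namely MRX1, MRX4, MRX6, MRX10 and MAM33. Of the members, 4 overlapped another annotated gene (MRX14, MRP4, MRPL51 and MRPL19), and for them the reads could not be assigned with certainty because no rule on strand was given.

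**Figure D1:**
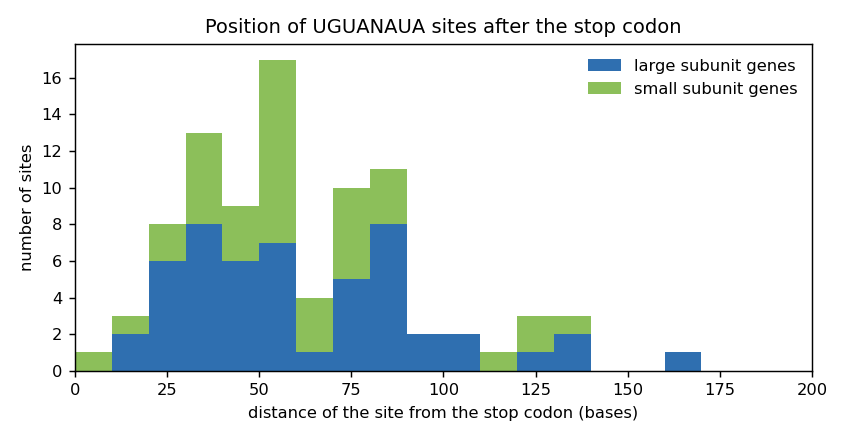
Number of TGTANATA matches (y axis) by the distance of their start from the stop codon in bases (x axis), for large and small subunit genes stacked. The matches of all members lie 8 to 165 bases after the stop codon.

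The libraries held between 1067250 and 8450296 reads, a 7.92-fold range, and the median member was counted 98.5 to 882 times per library. All counts of the first Ccr4/Pop2 degron library, the deepest, were multiples of 4, against 23.8% to 25.9% of counts in the other 5 libraries, so its count precision was lower than its total implies. The RNA of DCP2 itself stood at 50.9 and 54.7 CPM (counts at an equal library size) in the wild type and 22.8 and 22.7 CPM in its degron. That of POP2 stood at 70.5 and 49.9 CPM in the wild type and 43.7 and 30.8 CPM in its degron. In the Dcp2 degron, whose label lists no tag on POP2, it stood at 51.9 and 34.4 CPM. The tags act on the proteins, whose depletion was not measured here. In every strain the second library gave higher levels for most of the mitoribosomal protein genes, 62 of 74 in the wild type, 60 for the Dcp2 degron and 58 for the Ccr4/Pop2 degron. Shorter coding sequences went with a larger difference between the wild-type libraries (Spearman correlation -0.57 across 74 genes, which are not independent replicates). Libraries with the same replicate number deviated together from their group means, so level results are given from a model with no block and from a model with replicate number as a block. That pairing comes from the data and the replicate numbers, and the labels do not say that equal numbers were grown or prepared together.

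In the wild type the most abundant mitoribosomal mRNA by counts was that of MNP1, the stalk protein of the large subunit, at 136 and 373 CPM. Levels in CPM are after TMM, edgeR's scaling that takes most genes as unchanged. Per kilobase of coding sequence, the mean CPM was 435 for MNP1, 683 for RSM19, a small subunit protein, and 853 for MRPL39, a large subunit protein. Each read counts a transcript, so these values per kilobase do not rank the genes by abundance. Mean levels over the 74 genes ran from 19.6 CPM for MRP20, near the exit of the peptide tunnel, to 255 CPM for MNP1. Levels in CPM were higher for genes of shorter coding length, with a Spearman correlation of -0.66 across the 74 genes.

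mRNAs for mitoribosomal proteins took a larger share of reads for the Ccr4/Pop2 degron than in the wild type. Their share of all counted reads was 0.471% and 0.600% in the wild-type libraries and 0.875% and 1.15% in the Ccr4/Pop2 degron libraries, with 95% Wilson intervals of 0.461% to 0.481%, 0.589% to 0.612%, 0.869% to 0.881% and 1.13% to 1.16% that cover counting error only. For the first Ccr4/Pop2 library, whose counts are multiples of 4, the interval with counts divided by 4 was 0.862% to 0.887%. Neither degron library overlapped the wild-type pair. The means were 0.535% ± 0.0917 (SD, n = 2) and 1.01% ± 0.192 (SD, n = 2), a ratio of 1.89. Within same-numbered libraries the ratio was 1.86 and 1.91. The two-sided exact permutation p was 0.333, the smallest that 2 against 2 allow. These are relative counts, in which more RNA of these genes and less of all other RNA cannot be told apart.

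The rise was spread over both subunits and over nearly every gene. On the TMM scale the median mitoribosomal protein gene stood at 57.9 and 91.0 CPM in the wild type and at 102 and 164 CPM in the Ccr4/Pop2 degron. The second wild-type library lay close to the first degron library, and the difference within same-numbered libraries was 0.82 and 0.85 on the log2 scale. The fitted log2 change was above 0 for all 74 genes in the models without and with the block, where it was above 0 for 49.4% of all genes without the block. Both same-numbered pairs were higher in 73 of the 74 genes, where 36.4% of all genes tested behaved so, and both degron libraries exceeded both wild-type libraries in 38 of the 74 genes, against 16.5% of all genes.

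**Figure D2:**
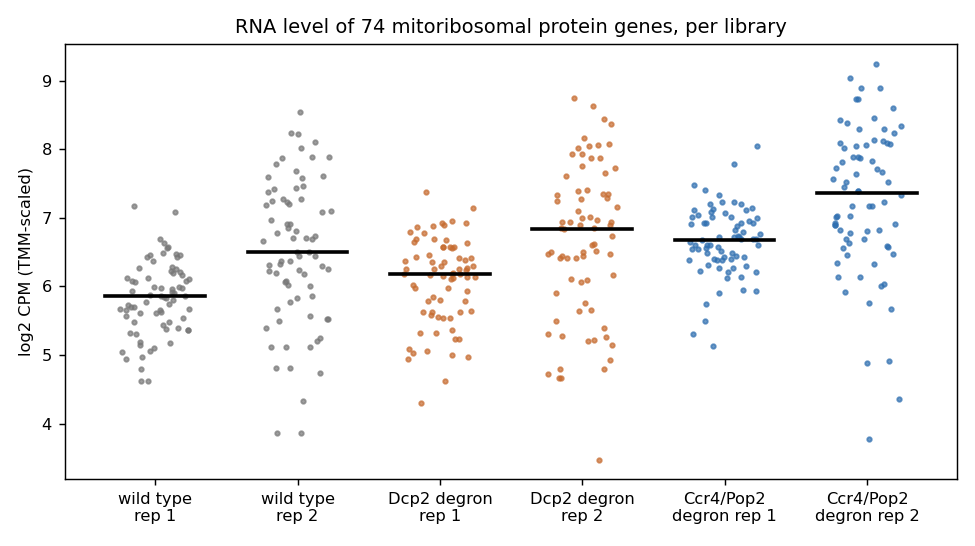
RNA level of the 74 mitoribosomal protein genes in each library, as log2 CPM after TMM scaling (y axis). Each point is a gene and each bar the median of the library, which is 5.86 and 6.51 in the wild type, 6.19 and 6.84 for the Dcp2 degron, and 6.68 and 7.36 for the Ccr4/Pop2 degron.

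Without the block, edgeR's quasi-likelihood test called 0 of the 90 members between the Ccr4/Pop2 degron and the wild type, where 0.0815% of all genes were called. DESeq2 also called 0 members, where it called 0.672% of all genes. At an unadjusted p under 0.05 edgeR had 25 members, where 7.99% of all genes passed, and the smallest adjusted p was 0.289. With the replicate block, edgeR called 74 members higher and 1 lower, against 14.2% of all genes called higher and 12.8% called lower. The members called higher included 42 of 43 large subunit genes and 28 of 31 small subunit genes, and none of these 74 genes was called lower. The median log2 change of the 74 genes was 0.78 with the block, with quartiles of 0.66 and 0.96 and a range of 0.33 to 1.38, beside a median of -0.01 over all genes. When the first Ccr4/Pop2 degron library was left out of the model with the block, 57 of the 74 genes and 8.74% of all genes were called higher. That fit has 1 Ccr4/Pop2 library, which is assumed to vary like the other groups. When its counts were divided by 4 instead, 70 of the 74 genes were called higher.

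Among large subunit genes, MRPL3 had the highest fitted change. It stood at 34.5 and 37.8 CPM in the wild type, 32.1 and 35.4 CPM in the Dcp2 degron, and 89.6 and 99.4 CPM in the Ccr4/Pop2 degron. The Ccr4/Pop2 libraries lay apart from the other 4, which overlapped. Its log2 change from the wild type was 1.38 ± 0.173 (SE) with the block (edgeR adjusted p = 1.73e-05), and adjusted p was 0.289 without it. MRPL28, another large subunit protein, stood at 31.4 and 28.2 CPM in the wild type, 41.4 and 50.04 CPM in the Dcp2 degron, and 70.7 and 80.9 CPM in the Ccr4/Pop2 degron. The 3 strains did not overlap in this gene, and the log2 change in the Ccr4/Pop2 degron was 1.31 ± 0.188 (edgeR with the block, adjusted p = 6.62e-05). MNP1 reached 219 and 607 CPM in the Ccr4/Pop2 degron, from 136 and 373 CPM in the wild type. Its strains overlapped, each second library being far above the first, and the log2 change with the block was 0.69 ± 0.123 (edgeR adjusted p = 0.000506).

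Among small subunit genes the highest changes were those of MRPS8 and MRP21, which encode counterparts of bacterial ribosomal proteins S8 and S21. MRPS8 stood at 40.1 and 80.5 CPM in the wild type, 63.0 and 128 CPM in the Dcp2 degron, and 103 and 210 CPM in the Ccr4/Pop2 degron. Both Ccr4/Pop2 libraries exceeded both wild-type libraries, and within each replicate number the order was wild type, Dcp2 degron, Ccr4/Pop2 degron. The log2 change from the wild type to the Ccr4/Pop2 degron was 1.37 ± 0.152 (edgeR with the block, adjusted p = 4.4e-06). MRP21 stood at 39.6 and 115 CPM in the wild type, 40.1 and 115 CPM in the Dcp2 degron, and 86.1 and 259 CPM in the Ccr4/Pop2 degron. Its first Ccr4/Pop2 library lay below the second wild-type library, so the groups overlapped, and the test passed only with the block (log2 change 1.15 ± 0.148, edgeR adjusted p = 2.3e-05, against 0.825 without). RSM19, the gene with 3 matches above, stood at 74.1 and 303 CPM in the wild type, 100 and 429 CPM in the Dcp2 degron and 162 and 527 CPM in the Ccr4/Pop2 degron. The second library exceeded the first in each strain, and both degrons exceeded the wild type within each number.

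Of the 74 genes, 15 had a fitted fold over 2 with the block in the Ccr4/Pop2 degron. The share of all genes above that fold was not counted. The 4 of the 74 genes that did not pass the test with the block were EHD3, MRP20, MRP4 and NAM9. EHD3, a hydrolase also found in the small subunit, stood at 33.4 and 14.5 CPM in the wild type and 39.4 and 20.6 CPM in the Ccr4/Pop2 degron (log2 change 0.33, edgeR with the block, adjusted p = 0.313). MRP20 stood at 24.7 and 14.5 CPM in the wild type and 35.1 and 13.7 CPM in the Ccr4/Pop2 degron (log2 change 0.37, edgeR with the block, adjusted p = 0.266). MRP4 stood at 52.0 and 28.2 CPM in the wild type and 60.0 and 50.7 CPM in the Ccr4/Pop2 degron, and NAM9 at 43.2 and 20.1 CPM and at 61.7 and 29.5 CPM. For these genes adjusted p was 0.115 and 0.0505 (edgeR with the block). All 4 had lower CPM in the second wild-type library than in the first, while 62 of the 74 genes had higher CPM there, and EHD3 and MRP20 were counted 18 times each there.

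**Figure D3:**
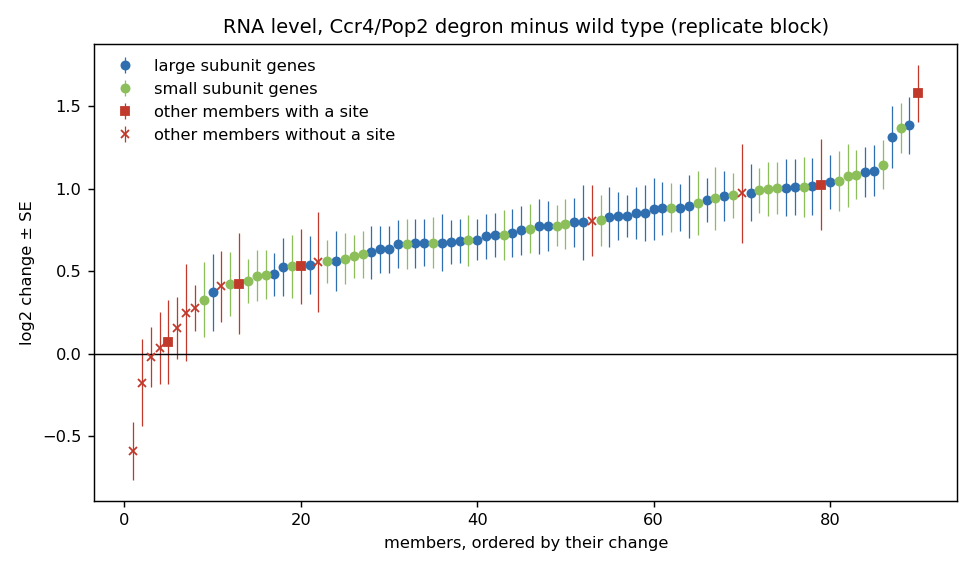
Fitted log2 change in RNA level from the wild type to the Ccr4/Pop2 degron, by the model with a replicate block (y axis, point and SE) for the 90 members in order of their change (x axis). Subunit genes lie between 0.33 and 1.38, and 8 members outside the ribosome, among them MRX1 with a TGTANATA match, lie below all subunit genes, down to -0.59 for MRX12.

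In the Dcp2 degron the mRNAs for mitoribosomal proteins took a larger share of reads than in the wild type, but stood only a little higher relative to the median gene. The share of reads was 0.828% and 0.974%, against 0.471% and 0.600% in the wild type. Both Dcp2 libraries exceeded both wild-type libraries, the ratio of means was 1.68, and the exact permutation p was 0.333, the smallest possible. After TMM scaling the median gene stood at 72.5 and 114 CPM, against 57.9 and 91.0 CPM in the wild type. On that scale the strains overlapped, and the difference within same-numbered libraries was 0.32 and 0.33 on the log2 scale (exact permutation p = 0.667). With scaling to total counts in place of TMM, the all-gene median log2 change in this comparison stood at 0.51. A larger share of reads for these genes and a smaller amount of all other RNA cannot be told apart in these counts.

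Without the block edgeR called 0 of the 90 members between the Dcp2 degron and the wild type, where it called 0% of all genes, and 1 member had an unadjusted p under 0.05, against 11.8% of all genes. DESeq2 called 0 members, where it called 1.08% of all genes. With the block edgeR called 21 members higher and 0 lower, against 17.6% of all genes called higher and 19.7% called lower. Of the 74 mitoribosomal protein genes 17 were called higher, 12 of the large and 5 of the small subunit, a share of 23.0%, near the share of all genes. Their median log2 change was 0.19 with a range of -0.32 to 0.68, beside -0.003 over all genes. With total counts and the block, 73 of the 90 members were called higher and 0 lower. Of the 74 mitoribosomal protein genes 61 were then called higher, where 50.7% of all genes were called higher and 6.11% lower.

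The subunit genes named by the largest increases in the Dcp2 degron were RSM10, MRP49, MRPS8 and MRPL28. RSM10, of the small subunit, stood at 58.1 and 155 CPM in the wild type, 102 and 234 CPM in the Dcp2 degron, and 83.6 and 271 CPM in the Ccr4/Pop2 degron. The groups overlapped across replicate numbers, and within each number both degrons were above the wild type (Dcp2 degron, log2 change 0.68 ± 0.16, edgeR with the block, adjusted p = 0.00247). MRP49, of the large subunit, stood at 42.2 and 45.9 CPM in the wild type, 72.9 and 66.7 CPM in the Dcp2 degron, and 84.0 and 94.6 CPM in the Ccr4/Pop2 degron. Its 3 strains did not overlap, and the log2 change in the Dcp2 degron was 0.66 ± 0.183 (edgeR with the block, adjusted p = 0.00798). The lowest fitted change among the genes named for this comparison was that of MRPL1, of the large subunit, at 41.2 and 41.9 CPM in the wild type and 37.7 and 30.3 CPM in the Dcp2 degron. It did not pass the test (log2 change -0.27, edgeR with the block, adjusted p = 0.342), and its fitted change was 0.25 with total counts.

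Both comparisons with the wild type share the wild-type libraries, so the degrons were also compared directly. Without the block edgeR called 0 members, where it called 0% of all genes, and 14 members had an unadjusted p under 0.05, against 16.4% of all genes. Of the members DESeq2 called only MRPL3 (log2 difference 1.46 ± 0.446, adjusted p = 0.0413), where it called 3.16% of all genes. With the block edgeR called 57 members higher and 2 lower with Ccr4/Pop2 tagged than with Dcp2 tagged, against 26.3% of all genes called higher and 20.8% called lower. Of the 74 mitoribosomal protein genes 56 were called higher and 0 lower, with a median log2 difference of 0.64, beside 0.08 over all genes. This result rests on the scaling. With total counts and the block 22 members were called higher and 9 lower. Of the 74 mitoribosomal protein genes 21 were then called higher and 1 lower. Of all genes, 9.64% were called higher and 41.1% lower, and total counts put the median log2 difference of all genes at -0.31. The share of all reads differed less between the degrons, with ratios of 1.06 and 1.18 in same-numbered libraries, overlapping groups and an exact permutation p of 0.667.

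The direct difference between the degrons is shown for MRPL35 and RSM10, named by a low and a high level change in the Dcp2 degron. The Dcp2 values enter the difference, so these genes do not measure how it varied over genes. For MRPL35, of the large subunit, the levels were 36.5 and 34.6 CPM in the wild type, 34.0 and 25.3 CPM in the Dcp2 degron, and 74.1 and 54.2 CPM in the Ccr4/Pop2 degron. The Ccr4/Pop2 libraries lay above the other 4, and the direct log2 difference between degrons was 1.13 ± 0.189 (edgeR with the block, adjusted p = 0.000101). RSM10, which was called higher in both degrons, had a direct log2 difference of -0.02 ± 0.144 (edgeR with the block, adjusted p = 0.929).

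Of the 16 members outside the ribosome, 4 were called higher in the Ccr4/Pop2 degron (MAM33, RSM22, MRX11 and MRX4) and 1 lower (MRX12), using the block. Of all genes, 14.2% were called higher and 12.8% lower there. MAM33, a matrix protein related to human p32, stood at 27.8 and 45.9 CPM in the wild type, 42.6 and 56.6 CPM in the Dcp2 degron, and 89.6 and 127 CPM in the Ccr4/Pop2 degron. The Ccr4/Pop2 libraries exceeded all others, and the log2 change of 1.58 ± 0.173 was the highest of the 90 members (edgeR with the block, adjusted p = 3.99e-06). MRX12 stood at 52.5 and 58.0 CPM in the wild type, 48.2 and 51.1 CPM in the Dcp2 degron, and 34.7 and 39.1 CPM in the Ccr4/Pop2 degron. The 3 strains did not overlap, and the log2 change in the Ccr4/Pop2 degron was -0.59 ± 0.177 (edgeR with the block, adjusted p = 0.0198). MRX4, with its match 14 bases after the stop codon, stood at 11.3 and 12.9 CPM in the wild type and 23.6 and 26.7 CPM in the Ccr4/Pop2 degron (log2 change 1.02 ± 0.276, edgeR with the block, adjusted p = 0.0104).

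In the Dcp2 degron 4 of the 16 members outside the ribosome were called higher with the block, namely MRX8, MRX5, MRP8 and MRX7, and 0 lower. Of all genes, 17.6% were called higher there. MRP8, a protein of uncertain function, stood at 132 and 206 CPM in the wild type, 224 and 273 CPM in the Dcp2 degron, and 156 and 257 CPM in the Ccr4/Pop2 degron. The Dcp2 libraries exceeded both wild-type libraries, and the log2 change was 0.58 ± 0.141 (edgeR with the block, adjusted p = 0.00319). MRX8, a GTP-binding protein by its sequence, stood at 30.9 and 76.5 CPM in the wild type, 55.6 and 105 CPM in the Dcp2 degron, and 35.1 and 65.8 CPM in the Ccr4/Pop2 degron. Within each replicate number the Dcp2 degron was highest, and MRX8 was 1 of the 2 members called lower in the Ccr4/Pop2 degron than in the Dcp2 degron (log2 difference -0.64 ± 0.168, edgeR with the block, adjusted p = 0.00437), the other being YMR1. None of MRX8, MRX5, MRP8 and MRX7 held a TGTANATA match, where 5 of the 16 members outside the ribosome and 14.2% of non-members held one. The 17 mitoribosomal protein genes called higher in the Dcp2 degron all held one.

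Of the 81 members with at least 20 reads per library, the 5 lowest in the Ccr4/Pop2 degron without the block, MRX12, MRX8, MRX3, YMR31 and MRP8, held no match. MRX1, at 21.1 and 13.7 CPM in the wild type and 21.9 and 14.4 CPM in the Ccr4/Pop2 degron, held a match and had a log2 change of 0.07 ± 0.253 (edgeR with the block, adjusted p = 0.866). The 5 members outside the ribosome that held a match had a median log2 change of 0.53 there and 2 were called higher. The 11 without a match had a median of 0.25, with 2 called higher and 1 lower. Within the mitoribosomal protein genes the kind and number of matches went with little difference. The 59 genes with a C 2 bases before the match had a median log2 change of 0.81 and the 15 without it 0.73. The 13 genes with 2 or more matches had a median of 0.83 and the 61 with 1 match 0.78. Across the 74 genes the change had a Spearman correlation of -0.18 with the distance of the first match from the stop codon and 0.03 with coding length. In the Dcp2 degron the change had a correlation of -0.32 with coding length, which also went with the difference between the wild-type libraries (-0.57), and its part in the Dcp2 result was not tested.

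Other genes of mitochondrial translation gave a comparison outside the name rule. In the Ccr4/Pop2 degron all 4 further mitoribosomal protein genes in the data, RTC6, FYV4, QRI5 and YNL122C, held a match and were called higher with the block, with a median log2 change of 1.03. Of 45 genes for translation factors, aminoacyl-tRNA enzymes, translational activators and ribosome assembly, 36 held a match, and 20 of these 36 were called higher and 0 lower, with a median of 0.74. Of the 9 without a match 0 were called in either direction and 2 had an unadjusted p under 0.05 (edgeR with the block), with a median of 0.15. Beside these calls, 14.2% of all genes were called higher and 12.8% lower, and 9 genes are too few to set against those shares.

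By role, 6 of 9 translation factors, 6 of 14 aminoacyl-tRNA enzymes, 5 of 16 activators and membrane tethers, and 3 of 6 assembly genes were called higher with the block in the Ccr4/Pop2 degron, and 0 of any list were called lower. The shares over all genes were 14.2% higher and 12.8% lower. MSY1, the mitochondrial tyrosyl-tRNA synthetase, stood at 12.9 and 12.9 CPM in the wild type, 15.4 and 12.6 CPM in the Dcp2 degron, and 69.0 and 54.2 CPM in the Ccr4/Pop2 degron. Only its Ccr4/Pop2 libraries stood apart, and the log2 change of 2.29 ± 0.224 exceeded that of every member (edgeR with the block, adjusted p = 1.01e-06). TUF1, the mitochondrial elongation factor Tu, stood at 155 and 160 CPM in the wild type, 122 and 121 CPM in the Dcp2 degron, and 237 and 224 CPM in the Ccr4/Pop2 degron. It was the only gene of these lists called lower in the Dcp2 degron (log2 change -0.37, edgeR with the block, adjusted p = 0.0417) and was called higher in the Ccr4/Pop2 degron (0.55, adjusted p = 0.00419).

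Over all genes that were not members, the 4131 without a match had a median log2 change of -0.04 in the Ccr4/Pop2 degron, with 456 called higher and 568 lower with the block. The 686 with a match had a median of 0.15, with 168 called higher and 58 lower, and the 170 with a C 2 bases before the match had a median of 0.42, with 66 called higher and 7 lower. In the Dcp2 degron the same 3 sets had medians of -0.03, 0.09 and 0.17. The 74 mitoribosomal protein genes stood above each of these sets in the Ccr4/Pop2 degron, at 0.78, and near the last of them in the Dcp2 degron, at 0.19. The 137 cytoplasmic ribosomal protein genes had medians of -0.20 in the Ccr4/Pop2 degron and -0.87 in the Dcp2 degron. PUF3 itself was among the RNA-binding genes to be described, but no values under that symbol were obtained.

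**Figure D4:**
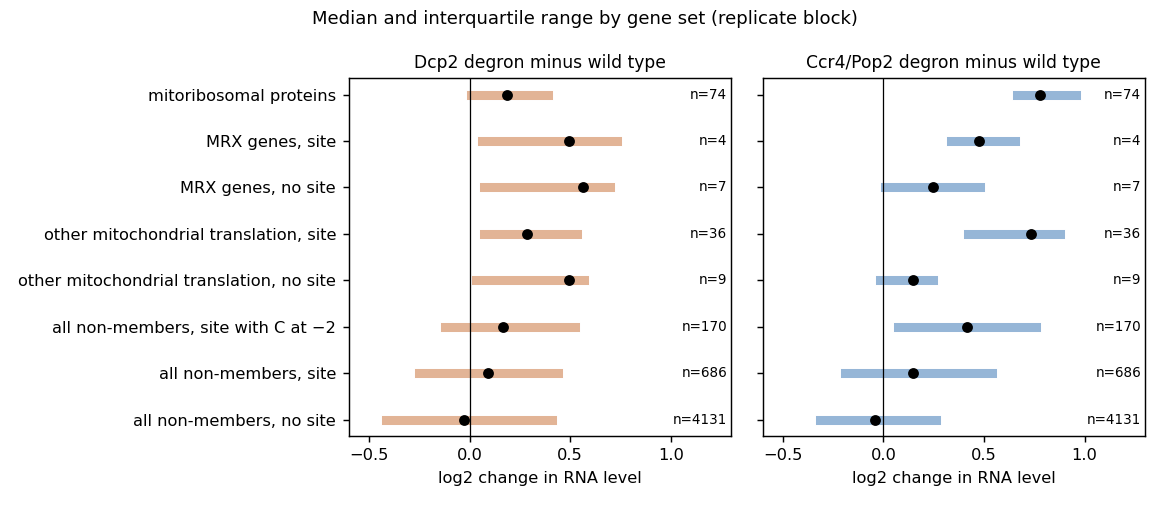
Median (point) and interquartile range (bar) of the fitted log2 change in RNA level by the model with a replicate block (x axis) for gene sets with and without a TGTANATA match after the stop codon, in each degron. The mitoribosomal protein genes lie at 0.78 in the Ccr4/Pop2 degron and at 0.19 in the Dcp2 degron.

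Poly(A) tails of mitoribosomal mRNAs were about as long as those of the median gene in the wild type and were longer in the Ccr4/Pop2 degron. Tails were compared where every library had at least 20 reads of a gene, in 3949 genes that include 72 of the 74 mitoribosomal protein genes and 81 of the 90 members. The median of the 72 genes was 38.6 and 44.1 nt in the wild type, 28.2 and 40.3 nt in the Dcp2 degron, and 51.3 and 51.5 nt for the Ccr4/Pop2 degron. The Ccr4/Pop2 libraries lay above the other 4, and the first Dcp2 library lay below them all. All genes tested gave medians of 38.4 and 42.9 nt, 31.5 and 38.8 nt, and 50.6 and 51.6 nt in the same order. Relative to these, the mitoribosomal median differed by 0.253 and 1.21 nt in the wild type and by 0.62 and -0.095 nt for the Ccr4/Pop2 degron, groups that overlapped.

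The group means were 41.4 ± 3.85 nt in the wild type and 51.4 ± 0.145 nt for the Ccr4/Pop2 degron (SD, n = 2 each), a difference of 10.01 nt. Same-numbered libraries differed by 12.6 and 7.39 nt, and the exact permutation p was 0.333, the smallest possible. Both Ccr4/Pop2 libraries exceeded both wild-type libraries in 66 of the 72 genes, a share near the 90% of all genes that did so. limma on log2 tail length called 0 of 81 members, where it called 0% of all genes, and 10 members had an unadjusted p under 0.05, against 28.8% of all genes. The median log2 change of the 72 genes was 0.33, beside 0.30 over all genes. When the Ccr4/Pop2 degron and the wild type were fitted alone, or when either Dcp2 degron library was left out, limma called 47 of the 81 members, all longer, where 59.1% of all genes were called longer.

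In the Dcp2 degron the mean of the library medians was 34.3 ± 8.59 nt (SD, n = 2). It differed from the wild type by -7.11 nt, and same-numbered libraries differed by -10.5 and -3.76 nt. The groups overlapped, and the exact permutation p was 0.667. limma called 0 of 81 members and 0% of all genes, with 9 members at an unadjusted p under 0.05, against 20.1% of all genes. Both Dcp2 libraries lay below both wild-type libraries in 29 of the 72 genes, against 44.9% of all genes. The first Dcp2 library decided the size of this difference. Without it the median log2 change of the members was -0.06, and without the second Dcp2 library it was -0.55, with 66 members called shorter, where 52.3% of all genes were called shorter. Each of these fits has 1 Dcp2 library, which is assumed to vary like the other groups. In the first Dcp2 library 10 of the 72 genes (13.9%) had a median tail under 20 nt, against 4.89% of all genes tested, and in the other 5 libraries none of the 72 did. The limit of 20 nt was chosen after the values had been seen.

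**Figure D5:**
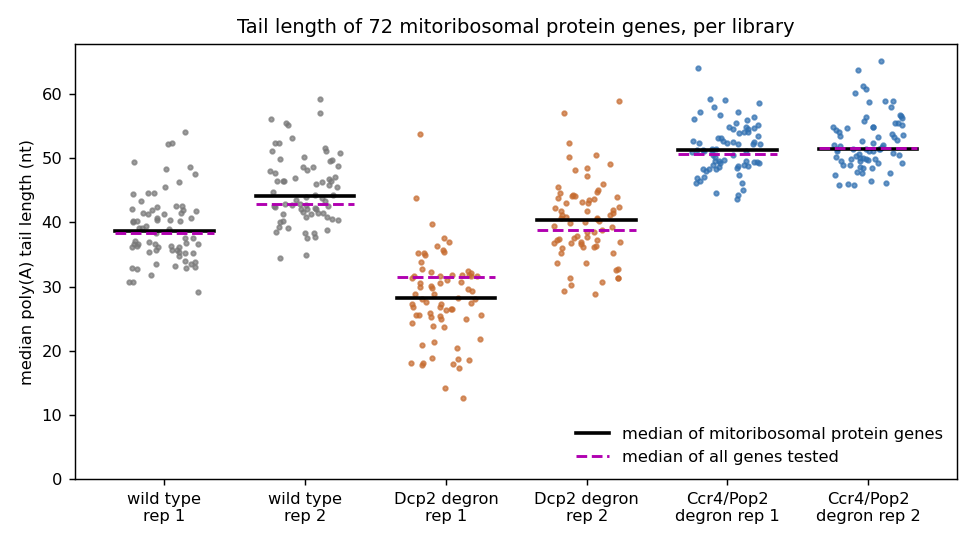
Median poly(A) tail length in nucleotides (y axis) of 72 mitoribosomal protein genes in each library, with a point per gene, the median of these genes as a solid bar and that of all genes tested as a dashed bar. The Ccr4/Pop2 degron libraries have medians of 51.3 and 51.5 nt, and the first Dcp2 degron library, at 28.2 nt, holds genes under 20 nt.

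Directly between the degrons, limma called 59 of 81 members longer in the Ccr4/Pop2 degron and 0 shorter, where 69.6% of all genes were called, and 68 members passed at an unadjusted p under 0.05, against 76.6% of all genes. Of the 72 mitoribosomal protein genes 52 were called, a share near that background. The difference of the means was 17.1 nt, with 23.1 and 11.1 nt in same-numbered libraries, no overlap and an exact permutation p of 0.333, the smallest possible. After each library was centred on its own median over all genes, limma called 0 members, where it called 0% of all genes. Fits that left out either Ccr4/Pop2 library had 1 library in that group, so their calls are not read here.

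Mean wild-type tails of the mitoribosomal protein genes ran from 32.5 nt for RSM19 to 54.6 nt for MRPL1, and longer coding sequences went with longer tails (Spearman correlation 0.49 across 72 genes). RSM19 had 30.7 and 34.4 nt in the wild type, 23.8 and 28.9 nt in the Dcp2 degron, and 48.9 and 48.6 nt for the Ccr4/Pop2 degron. The 3 strains did not overlap in this gene, and its log2 change of 0.59 ± 0.142 in the Ccr4/Pop2 degron was the largest of the 81 members (limma adjusted p = 0.165, not passing). MRPL1 had 54.1 and 55.2 nt in the wild type, 31.8 and 56.9 nt in the Dcp2 degron, and 56.7 and 61.2 nt for the Ccr4/Pop2 degron. Its Ccr4/Pop2 libraries lay above the wild type by less than those of RSM19, with a log2 change of 0.11 ± 0.255 (limma adjusted p = 0.701). MRP4, whose level did not pass the test, had long tails in every strain, at 52.1 and 56.0 nt, 53.7 and 58.9 nt, and 64.0 and 65.1 nt.

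The lowest fitted tail change in the Dcp2 degron was that of MRPS17, a small subunit protein. It had 40.2 and 42.6 nt in the wild type, 12.7 and 43.8 nt in the Dcp2 degron, and 55.5 and 54.0 nt for the Ccr4/Pop2 degron. Only the first Dcp2 library was short, so the log2 change of -0.81 ± 0.497 rests on it (limma adjusted p = 0.356), and it was 0.08 without that library. MRX8 had 52.2 and 52.4 nt in the wild type, 32.8 and 36.4 nt in the Dcp2 degron, and 51.4 and 57.1 nt for the Ccr4/Pop2 degron. Both Dcp2 libraries of MRX8 were short, and the Ccr4/Pop2 libraries overlapped the wild type (log2 change 0.05 ± 0.126, limma adjusted p = 0.71), the smallest tail change among the members there.

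Across mitoribosomal protein genes, level and tail changes in the Ccr4/Pop2 degron were close to unrelated, with a Spearman correlation of 0.06 over 72 genes that share the same libraries. In the Dcp2 degron the correlation was -0.33. MRPL3, the subunit gene with the highest level change in the Ccr4/Pop2 degron, had tails of 43.3 and 42.1 nt in the wild type and 52.1 and 51.5 nt for the Ccr4/Pop2 degron. The tails of MRPL3 were longer in both degron libraries, by a log2 change of 0.28 ± 0.195 that was below the median of the group (limma adjusted p = 0.277).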

How the data were processed

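The single deposited table holds, per the file headers, 1 read count per gene in each library, with no normalization by the authors, and beside it a median taken as the poly(A) tail length in nucleotides. The submitters' processing notes name minimap2, SAMtools 1.9 and sacCer3, and the rule for assigning reads to genes is not given in the sources used here. Columns whose name has no number were assigned to replicate 1 by elimination, and 0 columns were left without a sample. Members and gene lists were chosen with earlier results of these data known. Named genes are the 5 members with the lowest and the 5 with the highest log2 change without the block, for level and for tail in each degron against the wild type, among the 81 members at 20 reads or more throughout, the 5 most abundant in the wild type, the 3 with the longest and the 3 with the shortest tails, and the members outside the ribosome. EHD3, MRP20, MSY1 and TUF1 were named after their values were seen.

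Levels were fitted over all 4909 genes with edgeR 4.0.16 in R 4.3.3 (TMM scaling, filterByExpr, quasi-likelihood test, 6 libraries), and tails with limma 3.58.1 on log2 medians of 3949 genes, with Benjamini-Hochberg adjusted p under 0.05 as the call. DESeq2 1.42.0 was an alternative. Scripts were tested on simulated data. Same-numbered libraries deviated together, with correlations over genes of 0.804, 0.823 and 0.794 for levels and 0.257, 0.148 and 0.0548 for tails, so the replicate block is given for levels. Standard errors of edgeR changes were derived from the change and its F statistic. Motif matches were counted in the R64 genome for 4907 genes.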

Additional observations from a re-analysis of the deposited data

How the results depend on the processing

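The count of members called without a block was 0 for each level comparison and depended on the pairing of replicate numbers. The replicate block gave 21 members for the Dcp2 degron, 75 for the Ccr4/Pop2 degron and 59 between the degrons. In the same order 37.4%, 27% and 47.1% of all genes were called. Settings added after seeing the data, each with the replicate block, gave in the same order 73, 78 and 31 with total counts, 22, 75 and 58 with the first Ccr4/Pop2 library divided by 4, 23, 60 and 44 without it, 20, 76 and 45 with only the 2 groups compared, and 28, 74 and 52 with at least 20 reads in every library. DESeq2 called 1 member between the degrons, MRPL3, against 3.16% of all genes. Total counts shifted the members' median log2 change from 0.21 to 0.75 in the Dcp2 degron (0.75 with the block) and from 0.52 to 0.11 between the degrons (0.11 with the block). Leaving out a library moved the median level change from -0.11 to 0.60 in the Dcp2 degron, from 0.32 to 1.09 in the Ccr4/Pop2 degron and from 0.16 to 0.86 between the degrons. For tails it moved the median from -0.55 to -0.062 in the Dcp2 degron and from 0.38 to 0.84 between the degrons, and the calls from 0 to 66 in the Dcp2 degron, 0 to 47 in the Ccr4/Pop2 degron and 0 to 81 between the degrons. Tails with only the 2 groups compared gave 47 calls in the Ccr4/Pop2 degron, where 59.2% of all genes were called. Centred tails gave a median of -0.024 in the Ccr4/Pop2 degron and, between the degrons, 0.090 with 0 calls, where 0% of all genes were called. The replicate block changed no call of 0 for tails against the wild type. The cause was not tested in these cases.

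Among single genes, total counts turned the Dcp2 level change of MRPL1 (0.25), MRPL35 (0.28), MRP4 (0.24), MRP10 (0.30) and RSM25 (0.33), with 0.24, 0.26, 0.26, 0.30 and 0.29 under the block. They turned MRX8 (0.073, or 0.098 with the block) and MRX3 (0.12, or 0.15 with the block) in the Ccr4/Pop2 degron. MRX3 also turned with the block alone (0.036) and with the block and at least 20 reads (0.048). Leaving out a library moved the Dcp2 level change of MRP4 from -0.64 to 0.27, of MRP10 from -0.66 to 0.15, of RSM25 from -0.56 to 0.20 and of RSM10 from -0.056 to 1.52, and the Ccr4/Pop2 level change of MRX8 from -0.65 to 0.63, of MRX3 from -0.26 to 0.18, of YMR31 from -0.27 to 0.64 and of MRP8 from -0.13 to 0.61. It moved the Dcp2 tail change of MRPS17 from -1.70 to 0.084, of MRP4 from -0.0082 to 0.12, of MAM33 from -0.23 to 0.18, of MRPL13 from -0.35 to 0.18 and of MRPL23 from -0.26 to 0.059, and the Ccr4/Pop2 tail change of MRX8 from -0.024 to 0.13 and of MRPL35 from -0.051 to 0.19. Centring turned the tail changes of MAM33 (0.19), MRPL13 (0.13), MRPL9 (0.13) and MRPL23 (0.11) in the Dcp2 degron, and of MRX8 (-0.28), MRPL35 (-0.27), MRP1 (-0.23), MRPL1 (-0.22) and MRX3 (-0.22) in the Ccr4/Pop2 degron.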
